A study of Mus musculus with 84 samples.

Results

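Genes of the motile cilium were read in the central amygdala (CeA), a forebrain region built mainly of GABAergic neurons. The genes were the rows of the count table whose symbol began with Dnah, Cfap, Rsph or Tekt followed by a digit and which reached 10 counts in at least 20 of the 84 libraries. This rule took 44 rows with 43 symbols out of 43629 genes, and no measure of drinking or cell type entered it. The members were nonetheless chosen with earlier results of these data known. All 17 Cfap, all 8 Rsph, all 5 Tekt and 14 of the 16 Dnah rows passed. Just inside the limit were Tekt3 (21 libraries), Rsph6a (22) and Cfap221 (36), and outside it were Dnah2os (5) and Dnah14 (3). Cfap46 stands on 2 rows, named here by their identifiers. A further 14 genes carry a Cfap name in the reference table of gene names but an older symbol in the count table, so the rule did not take them.

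The animals were 43 female and 41 male mice of the HS-CC stock, an outbred population derived from the Collaborative Cross, with a median age of 15 weeks at the start. All 84 had a choice between water and 10% ethanol for 13 weeks, and no group without ethanol was among them. The CeA was cut by laser from frozen brain sections, and each animal gave 1 poly(A)-selected RNA-seq library. Ethanol preference is the share of all fluid that an animal took as ethanol solution, and its mean over the weeks ran from 0.0435 to 0.759 with a median of 0.229 in females, and from 0.0262 to 0.713 with a median of 0.153 in males. Ethanol intake, averaged the same way, had a median of 5.45 g/kg in females (0.689 to 15.2) and 2.75 g/kg in males (0.453 to 12.1). Up to 3 animals came from 1 family, and the labels do not tie single animals to families, so the animals were not fully independent.

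A motile cilium bends when dynein motors slide the microtubule doublets of its axoneme against each other. Outer dynein arms supply most of the force, inner arms shape the bend, radial spokes and the central apparatus coordinate the motors, and tektins and other inner proteins stiffen the doublets. In the brain, such cilia stand on the ependymal cells that line the ventricles, and they stir cerebrospinal fluid. Neurons carry a single primary cilium, which has neither dynein arms nor radial spokes. The transcription factors FOXJ1 and RFX2 and RFX3 switch on motile cilium genes, the RFX proteins through X-box elements in promoters.

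Promoter sequences are shown first, because the members were later sorted by how they moved with ependymal markers, and Tekt1 and Cfap20 stand for the sorted and the steady kind. RefSeq promoters (build GRCm38.p6, 250 bases before the transcription start) were found for 36 of the 43 symbols. The core motif of RFX sites, GTTGCC, was searched on both strands, where the other strand reads GGCAAC. It lay in the promoters of 10 of the 36 members (27.8%), against 11.8% of all 27025 genes in the table and 9 of 17 ependymal marker genes. Dnah7a, Dnah7b and Dnah7c, gene copies with similar sequence around the site, are all among the 10, so their sites may not be separate. The motif was present in 6 of 24 members that followed the ependymal markers and in 4 of 12 that did not, where following means an r of at least 0.4 with the ependymal score. Cfap46 was put with those that did not, by the longer of its rows, while its other row followed. A strict form of the X-box, GTTGCC with GGNAAC after a gap of 2 bases, also contains GTTGCC and occurred in 0 of the 36, against 0.292% of all genes. Looser forms of the X-box were not searched, so this count does not show that the promoters lack one. A forkhead motif, TGTTTAC, occurred in 4 of the 36 (11.1%; Cfap20, Cfap43, Dnah17 and Tekt3), against 3.54% of all genes. The sites below are given 5′ to 3′ on the strand of the gene, with the motif in capitals.
Dnah7b, chr1:46066682-46066703, plus strand: ggagcacaGTTGCCacccaccc
Dnah7c, chr1:46425291-46425312, plus strand: tcctcagaGTTGCCttccaccc
Dnah7a, chr1:53706971-53706992, minus strand: tcctcacaGTTGCCtgccaccc
Tekt2, chr4:126325771-126325792, minus strand: gctgcgcgGTTGCCtggctaag
Tekt2, chr4:126325697-126325718, minus strand: ggttgctcGGCAACcagagccg
Dnah10, chr5:124725057-124725078, plus strand: ctggcgccGTTGCCcaggtccc
Cfap46, chr7:139683816-139683832, minus strand: cgtctctaGGCAACcgc
Cfap20, chr8:95434950-95434971, minus strand: agtcccttGGCAACcaagttcc
Tekt1, chr11:72361904-72361925, minus strand: ctaactagGGCAACgttgcgtc
Tekt1, chr11:72361884-72361905, minus strand: tccgtccgGTTGCCatagagac
Cfap44, chr16:44394662-44394683, plus strand: gactctgtGGCAACacctcagt
Cfap44, chr16:44394772-44394793, plus strand: gttgctatGGCAACcgcagtaa
Cfap58, chr19:47937645-47937666, plus strand: gcgtggcgGTTGCCaggcgacc
The site of Cfap46 is cut by the end of the promoter window. The whole windows of Tekt1 (with the motif close to the start site) and of Cfap20 follow, again with the motif in capitals.
Tekt1, chr11:72361883-72362132, minus strand: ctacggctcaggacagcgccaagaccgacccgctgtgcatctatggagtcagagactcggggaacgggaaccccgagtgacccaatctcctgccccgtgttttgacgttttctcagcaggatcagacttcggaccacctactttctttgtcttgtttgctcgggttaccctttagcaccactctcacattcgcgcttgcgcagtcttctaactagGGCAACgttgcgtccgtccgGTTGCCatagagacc
Cfap20, chr8:95434870-95435119, minus strand: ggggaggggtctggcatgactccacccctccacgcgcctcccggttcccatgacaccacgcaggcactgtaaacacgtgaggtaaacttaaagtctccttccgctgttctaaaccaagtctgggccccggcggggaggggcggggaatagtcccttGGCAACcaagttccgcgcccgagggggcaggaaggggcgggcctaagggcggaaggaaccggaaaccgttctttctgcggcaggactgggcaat
A match to these letters describes the sequence and does not show that a factor binds there.

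Libraries held 24118965 to 42036566 counts, with a median of 31573088. Levels are given in CPM, counts scaled to a fixed library total (by TMM, described below), and in CPM per kilobase of exon where genes are compared. Neuron genes were read first, and the 16 neuron markers summed to 8363 to 13147 CPM. Gad1 of inhibitory neurons ran from 315 to 1006 CPM and Prkcd of CeA neurons from 4.83 to 82.9 CPM. All 3 were thus present in every library, which shows neurons but does not by itself check the tissue label. The 20 ependymal markers, none of them a member, summed to 45.0 CPM in the lowest, 83.8 in the median and 380 in the highest library. Of these, 5 markers, among them Ccdc153, Tmem212 and Spag17, were at 0 in some library, while Foxj1 was present in every library (1.65 to 87.8 CPM). The 14 markers of the choroid plexus, the epithelium that secretes cerebrospinal fluid, summed to 11.5, 85.3 and 24251 CPM. In bulk tissue, fewer cells of a type and less RNA per cell cannot be told apart.

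Each library was given a score for a cell type, the mean z-score of log2 CPM over the markers of that type. The ependymal score rose with the choroid plexus score (Pearson r = 0.93, Spearman rho = 0.86, permutation p = 1e-05 for both, the smallest that 100000 resamples can give, adjusted 2.33e-05 over 7 scores). It fell with the neuron score (r = -0.75, rho = -0.72, p = 1e-05 for both, adjusted 2.33e-05). Without the 2 libraries farthest from the median these values of r were 0.93 and -0.71. It also fell with the endothelial and mural score (r = -0.50, rho = -0.51, adjusted permutation p = 2.33e-05 for both) and the microglia score (r = -0.39, adjusted 0.000315; rho = -0.36, adjusted 0.00166). The astrocyte (r = -0.073), oligodendrocyte (-0.17) and leptomeningeal (-0.15) scores did not pass. The score stood apart in 5 libraries, males 38, 33 and 17 and females 38 and 17, with 1.72 to 2.02 against at most 1.22 in the other 79. In these 5, Ttr, the main secreted protein of the choroid plexus, had a median of 18640 CPM, against 22.8 CPM in the other 79. Results that rest on these 5 libraries are given with and without them.

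Most members followed the ependymal markers, which are themselves in large part cilium genes, from library to library. Both the members and the marker lists were chosen with earlier results of these data known. Of the 44 members, 31 had an r of at least 0.4 between their log2 CPM and the ependymal score, against 8.40% of the 16877 other genes, and 21 had an r of at least 0.8, against 1.52%. Tekt3 and Cfap221, both among the 31, reached 10 counts in only 21 and 36 libraries. They passed the rule through libraries where they were high, so their r is a description and no support. Of the 20 markers, 10 stand on the lists of cilium genes described further on (Foxj1, Hydin, Spag6l, Spag16, Spag17, Ak7, Ccdc39, Ccdc40, Drc1 and Dynlrb2), and some of the others, such as Enkur, are cilium genes too. With a score of the other 10 markers, chosen after the data were seen, the same 31 members reached 0.4, with a median r of 0.82, against 8.30% of 16736 other genes. With the choroid plexus markers, none of them on those lists, 28 of the 31 reached it and 0 of the other 13. The summed level of the 31 was 71.1 CPM in the lowest, 163 in the median and 628 in the highest library. The value of 0.4 is a limit of size: of the other 13, 6 had a positive r and Tekt5 a negative one at an unadjusted permutation p under 0.05. Without the 5 highest libraries, 26 of the 31 still reached 0.4. Within the 4 ascending runs of sample-sheet numbers in the sample titles, the possible batches of the series, 28, 31, 27 and 30 of the 31 reached it, with median r of 0.78, 0.91, 0.85 and 0.86. Median r was 0.85 in females and 0.85 in males. No member reached 0.4 with the neuron score: values ran from -0.78 (Cfap44) to 0.34 (Tekt5), 29 members lay at -0.4 or below, and only Tekt5 and Rsph6a lay above 0. Of 7 other cell types scored, the choroid plexus gave the highest r for Dnah11 and Dnah6 and microglia for Tekt5, the ependymal score gave it for 29 members, and 12 members reached 0.4 with none.

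**Figure D1:**
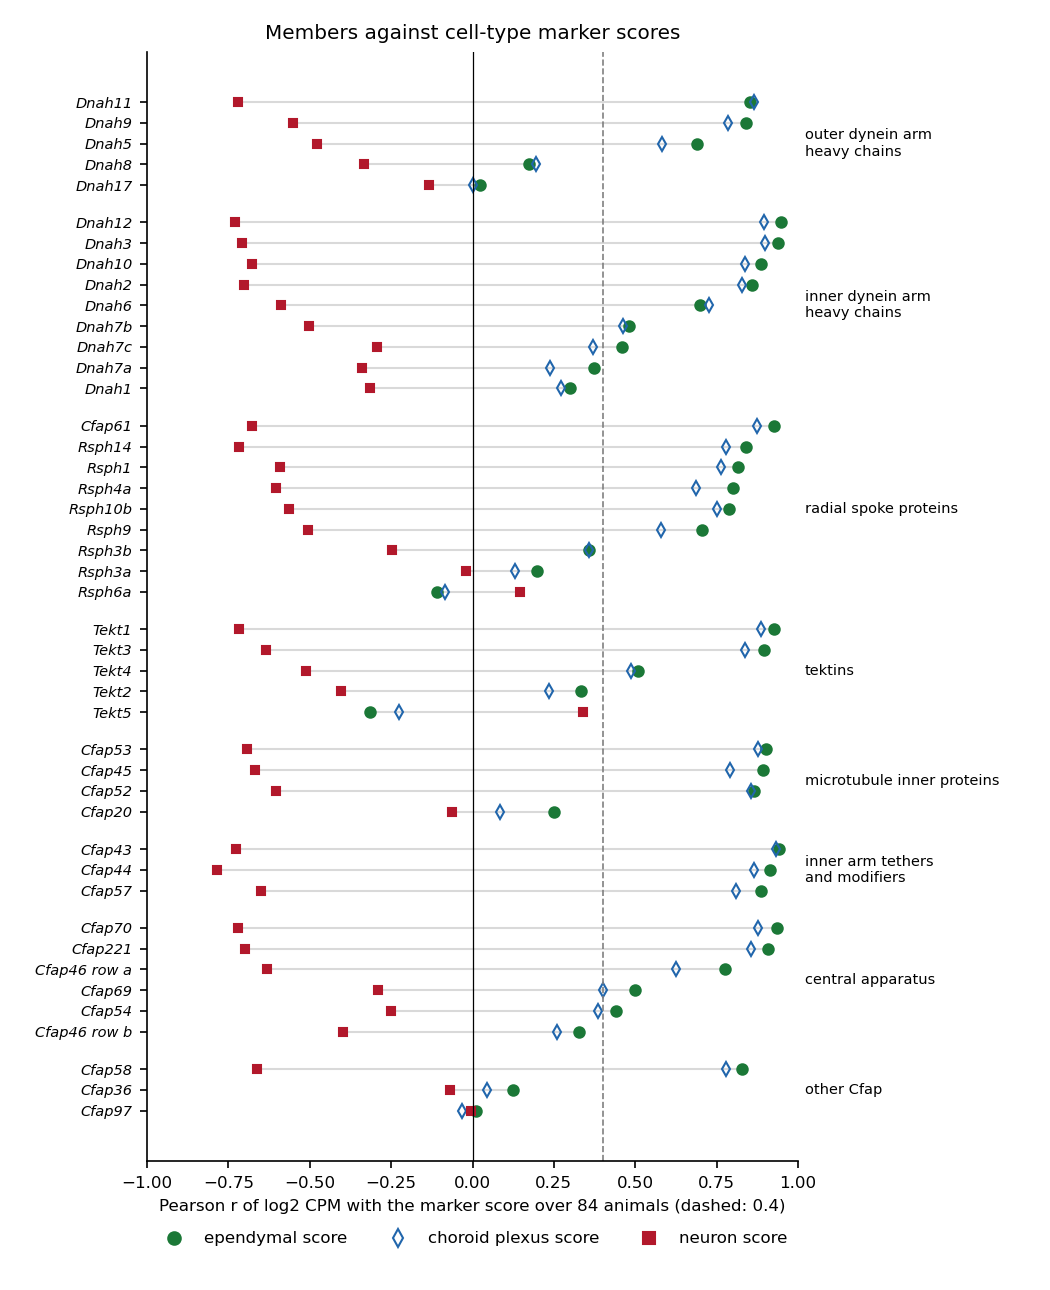
Pearson r of each member's log2 CPM with the ependymal (green circles), choroid plexus (blue open diamonds) and neuron (red squares) marker scores over 84 animals, ordered within each role by the ependymal r. The dashed line is at 0.4, which 31 of 44 members reach with the ependymal score and 0 with the neuron score; Cfap46 row a is ENSMUSG00000070357 and row b ENSMUSG00000049571.

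Outer arm heavy chains are the main motors of the beat. Dnah5, the chain most often mutated in human primary ciliary dyskinesia, had the highest level per length of the 5 (0.588 CPM per kb) and ran from 1.48 over 9.19 to 23.1 CPM. Dnah9, of the distal outer arms, ran from 1.57 over 6.83 to 37.5 CPM, and Dnah11, of the proximal ones, from 0.121 over 1.36 to 22.95 CPM. All of these moved with the ependymal score, with r of 0.69, 0.84 and 0.85. Dnah8 and Dnah17, the outer arm chains of sperm tails, were low and did not, with medians of 0.928 and 0.385 CPM and r of 0.17 and 0.02.

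Inner arm heavy chains held the member that moved most closely with the ependymal score. Dnah12, of a single-headed inner arm, was at 0 in the lowest library and reached 0.556 CPM in the median and 9.79 CPM in the highest. Its r was 0.95 and its rho 0.93 (permutation p = 1e-05 for both), and r was 0.94 without the 2 libraries farthest from the median score and 0.93 without the 5 highest. It was 0.95, 0.97, 0.95 and 0.93 within the 4 runs. One such relation was computed for each of the 44 members, and their p-values are unadjusted. The chain Dnah3 was also listed at 0 in the lowest library, at 0.228 CPM in the median and at 13.4 CPM in the highest (r = 0.94). Dnah10 and Dnah2 encode the paired chains of the double-headed inner arm: Dnah10 ran from 0.136 over 1.07 to 15.2 CPM and Dnah2 from 0.804 over 3.51 to 27.6 CPM. Their r values of 0.89 and 0.86 were close to each other, as were those with the neuron score (-0.68 and -0.70). Dnah6 ran from 0.424 over 5.26 to 46.8 CPM, with r of 0.70 for the ependymal and 0.73 for the choroid plexus score. Dnah1, the inner arm chain with the highest level per length (1.13 CPM per kb), spread over 4.94, 14.6 and 38.6 CPM but had an r of only 0.30. In females its r was 0.50 and in males 0.06, a difference that was not tested.

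Dnah7a, Dnah7b and Dnah7c are copies on chromosome 1 that share part of their transcript sequence, and reads from the shared stretches may not be told apart. Of the 50-base windows of Dnah7c transcripts, 37.5% occurred unchanged in Dnah7b, and of those of Dnah7a 29.4% did. Of the windows of Dnah7b, 23.6% occurred in Dnah7c and 18.6% in Dnah7a, so most windows were not shared. Medians were 4.09 CPM for Dnah7a, 2.67 CPM for Dnah7b and 0.690 CPM for Dnah7c, with ependymal r of 0.37, 0.48 and 0.46. Over animals, Dnah7b and Dnah7c had r = 0.50 with each other, Dnah7a and Dnah7b 0.31 and Dnah7a and Dnah7c 0.27. Each copy therefore carries an uncertain value.

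Radial spokes carry signals from the central apparatus to the motors. Rsph9, a spoke head protein, had the highest level per length among them (16.5 CPM per kb) and ran from 6.33 over 26.4 to 45.9 CPM, with r = 0.70. Rsph1, also of the spoke head, ran from 3.65 over 11.6 to 84.9 CPM (r = 0.81), and Rsph4a from 1.69 over 9.76 to 33.7 CPM (r = 0.80). Further down, Rsph10b had a median of 2.90 CPM (0.915 to 13.9; r = 0.79), and 13.2% of its exon bases overlap Pms2 on the same strand. Cfap61, which ties spokes to the doublet, was the closest follower among spoke proteins, with 1.67, 4.26 and 31.4 CPM and r = 0.93. Rsph14 was low (0.0319, 0.401 and 2.15 CPM; r = 0.84). The remaining spoke genes lay under 0.4. Rsph6a, the sperm counterpart of Rsph4a, had a median of 0.159 CPM and r = -0.11. Rsph3a and Rsph3b, copies of a spoke stalk gene on chromosome 17 that share 54.4% of their 50-base windows, had medians of 3.80 and 4.13 CPM, r of 0.20 and 0.36 with the score and -0.02 with each other.

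Tektins form filaments inside the doublets, and within this 1 family r ran from 0.93 to -0.31. Tekt1 followed the ependymal score closely, from 0.819 over 3.19 to 26.6 CPM (r = 0.93, rho = 0.92). So did Tekt3, although it was listed at 0 in some libraries and had a median of only 0.0671 CPM and a highest value of 1.61 CPM (r = 0.90). Since Tekt3 reached 10 counts in only 21 libraries, those where it was high, this r is a description and no support. Tekt4 followed less closely, from 1.29 over 4.61 to 12.6 CPM (r = 0.51, and 0.34 with the astrocyte score); without the 5 highest libraries its r was 0.39. For Tekt2 the values were 0.308, 1.32 and 11.4 CPM and r was 0.33, and 20.8% of its exon bases overlap the antisense gene Gm12945, whose reads could not be told apart without the strand setting. Tekt5, a tektin of sperm tails, had the highest level per length of the 5 (3.47 CPM per kb) and was the most variable member outside the ependymal set, with 0.493, 6.28 and 41.1 CPM and an SD of 1.34 on the log2 scale. It went against the ependymal score (r = -0.31, rho = -0.32, permutation p = 0.00366 and 0.0029; r = -0.25 without the 2 farthest libraries and -0.32, -0.14, -0.47 and -0.39 within the runs), and had r of 0.34 with the neuron and 0.44 with the microglia score.

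Other proteins inside the doublets divided as well. Cfap53 ran from 0 over 0.262 to 2.54 CPM (r = 0.90), Cfap45 from 1.26 over 4.83 to 16.8 CPM (r = 0.89), and Cfap52 from 0 over 1.36 to 23.97 CPM (r = 0.86). Cfap20, an inner junction protein that primary cilia also contain, had the highest level per length of this role (37.5 CPM per kb). It stayed between 36.3 and 66.1 CPM around a median of 48.5, with an SD of 0.17 on the log2 scale and r = 0.25. Its r was 0.53, 0.56 and 0.54 in the first 3 runs and -0.27 in the fourth.

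Tethers of the inner arms all followed. Cfap43 ran from 0.831 over 2.52 to 35.6 CPM (r = 0.94) and its partner Cfap44 from 1.01 over 3.76 to 36.4 CPM (r = 0.91), the latter with the highest level per length of the 3 (0.443 CPM per kb). Cfap57, which places a subset of inner arms, ran from 0.287 over 1.34 to 7.78 CPM (r = 0.89). No member of this role lay outside the ependymal set.

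The central apparatus, the pair of microtubules in the axis, held close and loose followers. Cfap70 ran from 0.116 over 1.55 to 15.3 CPM (r = 0.93) and Cfap221 from 0 over 0.267 to 2.64 CPM (r = 0.91). Cfap69, with the highest level per length here (3.03 CPM per kb), varied little (9.40, 16.6 and 34.8 CPM; r = 0.50), and Cfap54 had 6.22, 26.8 and 60.5 CPM (r = 0.44). Without the 5 highest libraries these 2 had r of 0.32 and 0.31. The rows of Cfap46 differed: ENSMUSG00000070357 had a median of 2.61 CPM and r = 0.78, and ENSMUSG00000049571 4.26 CPM and r = 0.33, with r = 0.42 between them. These rows are neighbours on chromosome 7, at 139600951 to 139616329 and 139638778 to 139683817 of GRCm38.

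Of the remaining Cfap genes, Cfap58 followed (0.0348, 0.422 and 1.85 CPM; r = 0.83). Cfap36, which encodes a binding partner of the ciliary GTPase ARL3, was the member with the highest level per length of all 44 (40.7 CPM per kb) and stayed between 73.1 and 154 CPM around a median of 112. Cfap97 stayed between 20.8 and 40.9 CPM around 31.6. Both were near 0 in r (0.12 and 0.01), with SDs of 0.25 and 0.18 on the log2 scale. Cfap20, Cfap36 and Cfap97 had the smallest SDs of the 44, and with the neuron score they had r of -0.06, -0.07 and -0.004.

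**Figure D2:**
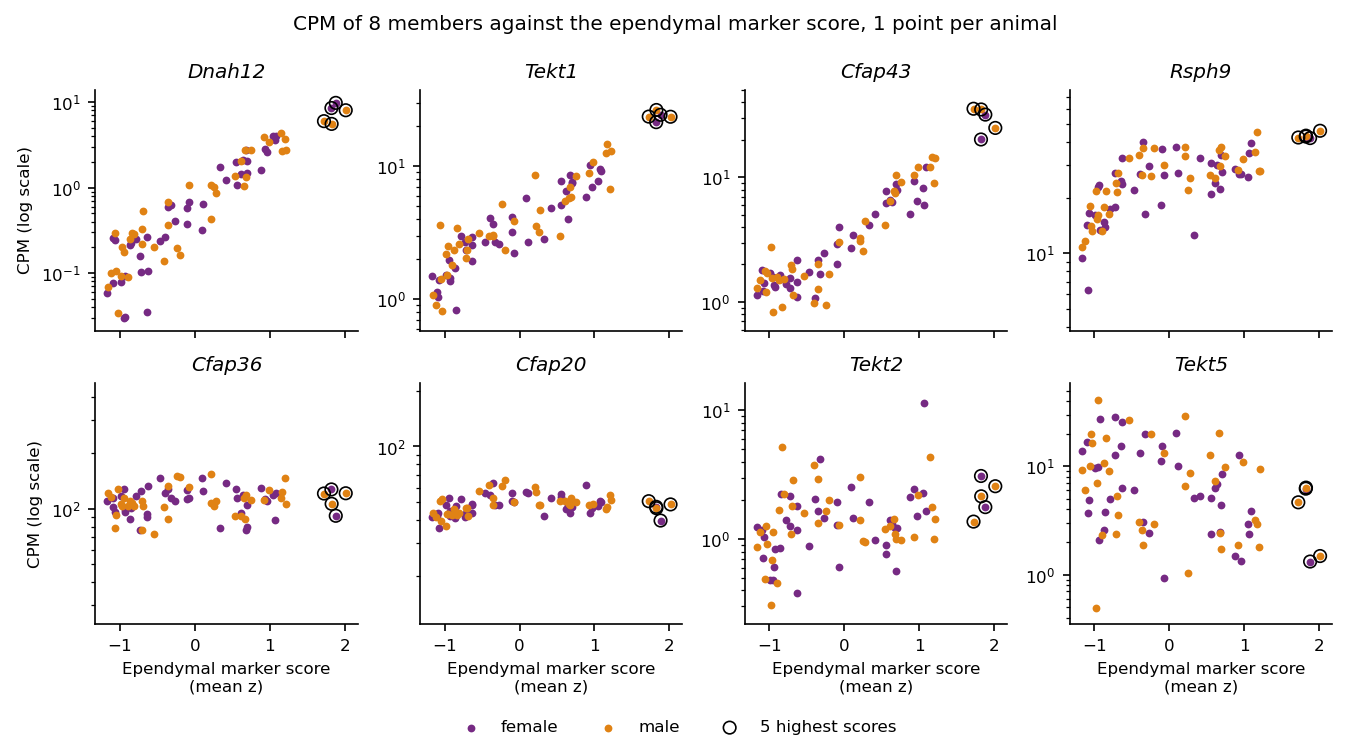
CPM (log scale) of 8 members against the ependymal marker score, 1 point per animal, females purple, males orange, the 5 libraries of highest score ringed; libraries without a Dnah12 count are drawn at the foot of its panel. Dnah12, Tekt1 and Cfap43 climb over the whole range of the score, Rsph9 less, while Cfap36 and Cfap20 stay level and Tekt2 and Tekt5 scatter.

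The 31 were chosen for their r with 1 score, so pairs among them are described without a test. All 465 of their pairs had a positive r over animals, with a median of 0.70 and a range of 0.06 to 0.93. Without the 5 highest libraries the median was 0.61 and 463 pairs were positive, and within the 4 runs the median was 0.63, 0.76, 0.65 and 0.72. Pairs of the other 13 members had a median r of 0.06, with 47 of 78 positive, and pairs of 1 from each set 0.13 (lower values follow in large part from the same choice). The closest pair among the 13 was Tekt2 and Dnah1 (r = 0.59). Both also differed between the runs, as given further on, and this r was not adjusted for run.

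**Figure D3:**
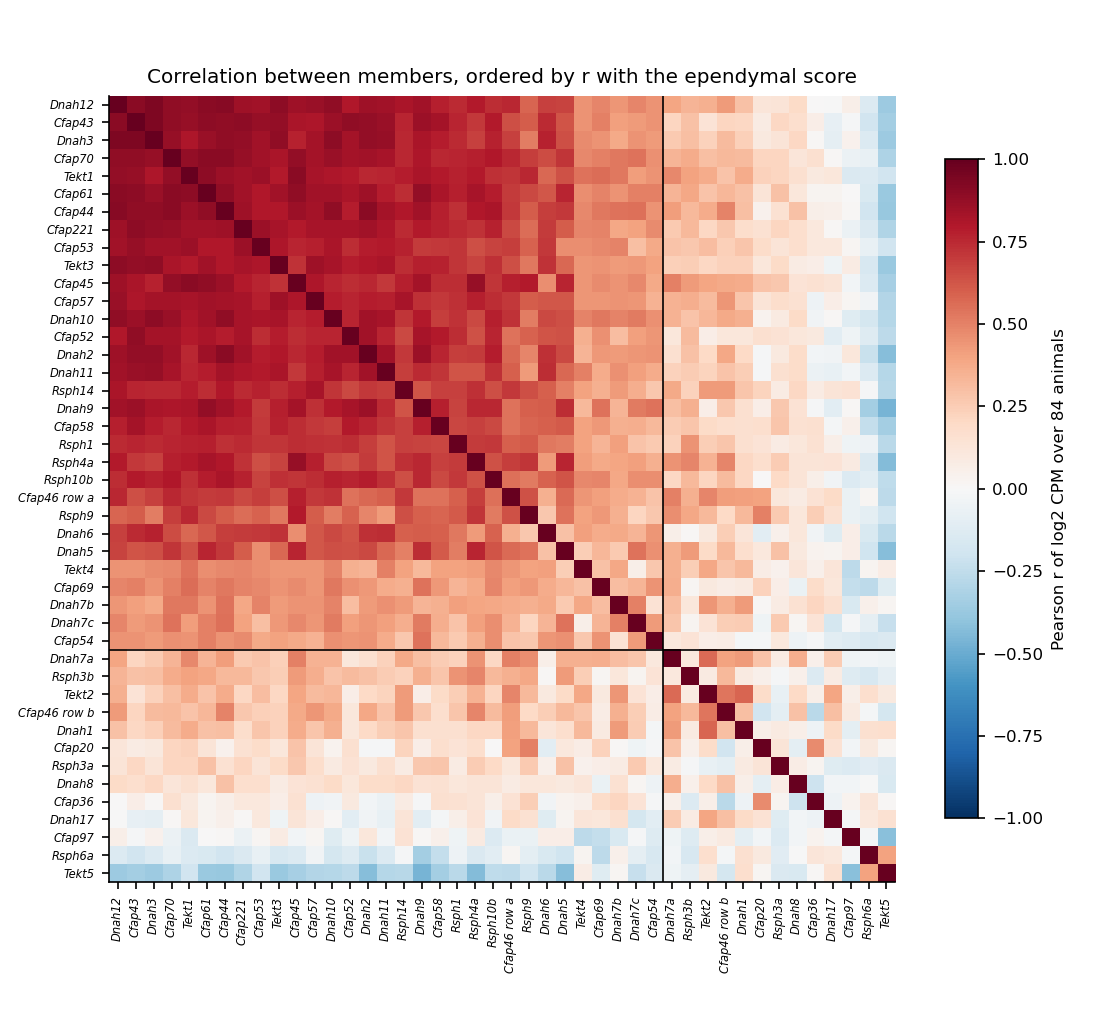
Pearson r of log2 CPM over 84 animals for every pair of the 44 members, ordered by r with the ependymal score from top to bottom. Pairs of the 31 members above the line have a median r of 0.70, and pairs of the 13 below it 0.06.

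The genes outside the 4 families whose log2 CPM was most like the mean z-score of the 31 were Maats1 (r = 0.97), Ccdc108 (0.95), Drc7, Lrrc23, Daw1 and Ak9 (0.95 each), Ttc21a (0.94) and Dlec1 (0.94). Ccdc108 and Maats1 are themselves genes of the axoneme, and Ccdc108 is named Cfap65 in the reference table. The 13 genes with newer Cfap names that reached 10 counts in 20 libraries had ependymal r of 0.50 to 0.94, with a median of 0.90, so genes that the symbol rule missed lay with the 31. The genes most like each of the 13 other members were of another kind. For Cfap20 they were Cluap1, of intraflagellar transport (r = 0.84), and Apex1, of DNA repair (0.81). For Tekt2 the first was Magel2 (0.74), and for Tekt5 they were Znhit1 (0.61) and Gpx1 (0.60). Within the ependymal set, Tekt4 was most like Sdc4 (0.74) and Idh2 (0.73).

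Neighbours on the chromosome appeared among the most alike genes of the 13. For 6 of the 13, at least 1 of the 5 most alike genes lay within 5 Mb (11 such genes), against 1 of the 31 (1 gene). Distances of alike genes run between gene midpoints, so they include part of the length of long genes. The 31 are an uneven comparison, since they were chosen for following 1 score, and the share over all genes was not computed. Dnah8 on chromosome 17 was like Glo1 (r = 0.59, 0.147 Mb away) and Glp1r (0.58, 0.169 Mb). Rsph3a was like Tagap1 (r = 0.66, 1.00 Mb away) and Rnaset2a (0.58, 0.176 Mb), Rsph6a like Gm19345 (0.61, 0.791 Mb) and Nanos2 (0.49, 0.0763 Mb), and Rsph3b like Rps6ka2 (0.55, 0.310 Mb). Dnah1 had Glt8d1 at 0.285 Mb (r = 0.54) and Cfap36 had Acyp2 at 1.34 Mb (0.56). Some of the lowest values of r also met neighbours, with distances here taken between the nearest gene ends. The lowest r of Dnah1 was with Bap1 (-0.71, 431 bases), that of Cfap46 (ENSMUSG00000049571) with Bnip3 (-0.69, 0.729 Mb) and that of Rsph3a with Gm16168 (-0.57, 2.52 Mb). For the rest of the 13, the gene of lowest r lay farther off (24.6 Mb for Cfap97, 90.4 Mb for Cfap36) or on another chromosome. The share over all genes was not computed. These animals were outbred, their genotypes were not analysed here, and a cause of these relations was not tested.

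Other parts of the motile machinery were read from lists of genes outside the 4 families, by their r with the mean z-score of the 31. All 7 further central apparatus genes, 10 of 11 genes of the ruler and nexin-dynein complex, 8 of 11 dynein intermediate and light chain genes and 11 of 15 docking and assembly genes reached 0.4. Of 10 ciliogenesis transcription factors 6 did, among them Foxj1, Myb, Gmnc and Rfx2, while Rfx3, at 69.9 CPM in the median library, had an r of 0.31. Of 15 primary cilium genes 5 reached 0.4, the highest at 0.63. Over all 16897 genes that are no members the share was 8.83%. The 31 had been chosen with a score that holds 10 of these genes (5 central apparatus, 3 ruler and nexin-dynein, 1 light chain and 1 transcription factor). Without those, the counts were 2 of 2 central apparatus, 7 of 8 ruler and nexin-dynein, 7 of 10 intermediate and light chain and 5 of 9 transcription factor genes.

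To ask which members go with chronic drinking, expression was regressed on preference averaged over the 13 weeks. Slopes are log2 changes in level per 0.5 rise in preference, with SE, from edgeR's quasi-likelihood test with sex as a term, adjusted over all 16941 genes tested. The 10 members with the smallest p sloped upward and all belonged to the ependymal set: Cfap53, of the doublet lumen, had a slope of 1.39 ± 0.43 (p = 0.00155) and Dnah2 one of 0.88 ± 0.29 (p = 0.00328). Next were Cfap57 (0.82 ± 0.31), Cfap69 (0.32 ± 0.12), Dnah10 (1.24 ± 0.47), Cfap44 (0.96 ± 0.38), Dnah9 (0.71 ± 0.29), Cfap43 (1.05 ± 0.45), Tekt1 (0.87 ± 0.38) and Cfap61 (0.66 ± 0.29), with p up to 0.0228. In edgeR 0 of 44 members passed an adjusted p under 0.05, as 0% of all genes did, and the adjusted p was 0.9998 for each of these 10. At an unadjusted p under 0.05 there were 19 members, all with positive slopes and all in the ependymal set, against 4.18% of all genes. DESeq2 gave 0 and 21, limma-voom 0 and 10, and edgeR with run as a covariate 0 and 12. Because members varied together, such counts do not add up as independent results.

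The slopes were larger in the members that followed the ependymal score. The median slope was 0.72 over the 31 members and 0.05 over the other 13, and over all 44 it was 0.51, with 38 of 44 above 0, against 48.1% of all genes. With the ependymal score as a covariate the median over the 44 was 0.03, with 26 above 0, and with the choroid plexus score it was 0.09. The 31 were chosen for following the ependymal score, so this covariate takes out much of what they vary by, whatever lies behind it. Fits with these covariates therefore cannot tell drinking apart from the scores. Without the 5 highest libraries the median over the 44 was 0.20, with 35 above 0 and 2 members at an unadjusted p under 0.05. The ependymal score itself, which holds no member, had r = 0.18 with mean preference (permutation p = 0.0919, adjusted 0.207 over 9 relations) and rho = 0.10 (p = 0.384, adjusted 0.856). That r was 0.15 without the 2 animals farthest from the median, and -0.05, 0.54, -0.05 and 0.05 within the 4 runs, so it lay above 0.1 in the second run alone.

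Week 1 preference asked which members go with the first choice of ethanol. Cfap69 had the smallest p, with a slope of 0.24 ± 0.11 (p = 0.0426, adjusted 1.000), and was the 1 member at an unadjusted p under 0.05, against 3.29% of all genes. Tekt2 (-0.48 ± 0.29), Cfap36 (-0.12 ± 0.08) and Tekt4 (-0.23 ± 0.19) sloped down without passing. Dnah7c (0.35), Cfap53 (0.59), Cfap57 (0.39), Dnah10 (0.55), Rsph1 (0.36) and Cfap52 (0.67) sloped up without passing. In edgeR 0 members passed, against 0.0295% of all genes, and DESeq2 and limma-voom also gave 0, each with 1 at an unadjusted p under 0.05. The median slope of the 44 was 0.15, and -0.15 without the 5 highest libraries, when only 8 of 44 were above 0; with all libraries it was 30, against 50.9% of all genes.

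Week 13 preference, the last before dissection, gave 9 of the same 10 leading members. Dnah2 had a slope of 0.74 ± 0.22 (p = 0.00151), Cfap53 1.10 ± 0.35, Cfap57 0.73 ± 0.24, Cfap44 0.88 ± 0.30, Cfap61 0.65 ± 0.22 and Dnah10 1.08 ± 0.38. Tekt1 (0.84 ± 0.30), Cfap43 (0.98 ± 0.35), Cfap221 (0.89 ± 0.34) and Dnah9 (0.58 ± 0.22) completed the first 10, all with an edgeR adjusted p of 0.630. Over all members edgeR gave 0 at an adjusted p under 0.05, as for 0% of all genes, and 24 at an unadjusted p under 0.05, 23 of them upwards, against 6.26% of all genes. DESeq2 gave 0 and 24, and limma-voom 0 and 14. Without the 5 highest libraries the edgeR counts were 0 and 2, and the median slope went from 0.44 (38 of 44 above 0, against 49.6% of all genes) to 0.13.

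In females alone most of the same members led for mean preference. Cfap53 had 1.75 ± 0.46 (p = 0.000459), Dnah2 1.21 ± 0.36, Rsph10b 1.00 ± 0.30, Cfap54 0.72 ± 0.22 and Tekt1 1.36 ± 0.45. Cfap44 (1.35 ± 0.45), Cfap61 (1.07 ± 0.36), Dnah11 (1.70 ± 0.58), Dnah10 (1.73 ± 0.60) and Dnah9 (1.00 ± 0.36) followed, and the edgeR adjusted p of these 10 was 0.470 to 0.472. Here 0 members passed an adjusted p under 0.05, as 0% of all genes, and 21 had an unadjusted p under 0.05, all upwards, against 7.14% of all genes. DESeq2 gave 0 and 21, and limma-voom 0 and 11. Slopes were above 0 for 39 of 44, against 50.8% of all genes. Without females 17 and 38, the females among the 5 highest libraries, the count at an unadjusted p under 0.05 was 1, the median slope went from 0.72 to 0.15, and that of Dnah11 turned to -0.07. The ependymal score in females had r = 0.37 with week 13 preference (permutation p = 0.0148, adjusted 0.133 over 9 relations; rho = 0.33, p = 0.0307, adjusted 0.276), and 0.33 without the 2 farthest animals. Within the runs this r was 0.31, 0.79, -0.21 and 0.13.

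In males 0 members reached even an unadjusted p under 0.05 in edgeR, against 1.75% of all genes, and DESeq2 and limma-voom gave 0 as well. The first were Cfap69 (0.30 ± 0.20, p = 0.143), Tekt3 (1.49 ± 1.05), Cfap53 (0.98 ± 0.72), Cfap57 (0.66 ± 0.49) and Rsph3a (0.32 ± 0.24). Cfap58 (0.68), Dnah7b (0.45), Tekt5 (0.66), Dnah12 (0.93) and Rsph14 (0.52) were next. The median slope was 0.28, with 29 of 44 above 0, against 49.3% of all genes. Whether slopes differ between the sexes was tested with its own term, as the male minus the female slope. Cfap54 had -0.92 ± 0.37 (p = 0.0156), Rsph10b -0.92 ± 0.54, Cfap61 -0.94 ± 0.58 and Tekt1 -1.09 ± 0.77. Rsph9 (-0.50), Cfap45 (-0.75), Tekt2 (-0.86), Dnah7c (-0.66), Dnah2 (-0.78) and Dnah11 (-1.33) came next, all with an edgeR adjusted p of 0.999. The difference passed for 0 members (1 at an unadjusted p under 0.05, against 3.25% of all genes), so a steeper slope in females was not shown. The median of this term was -0.58, with 5 of 44 above 0 against 46.3% of all genes, and 0.07 without the 5 highest libraries.

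**Figure D4:**
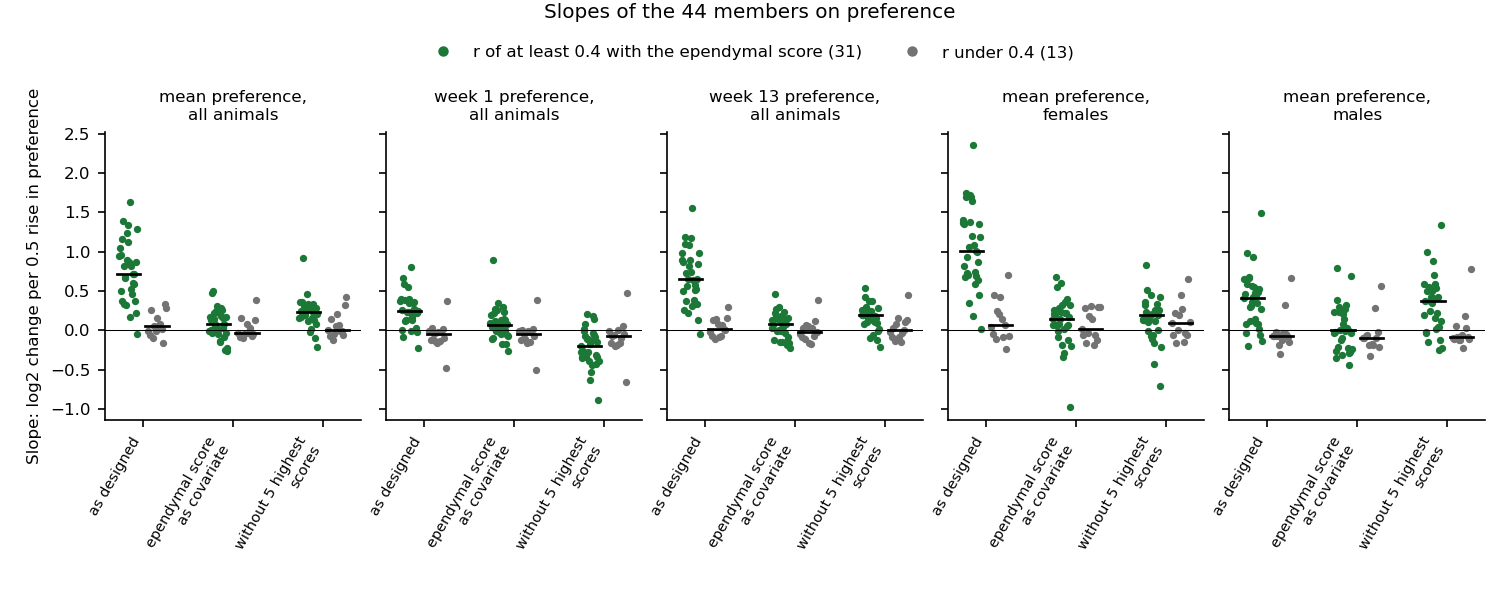
Slopes of the 44 members on preference (log2 change per 0.5 rise), 1 point per member, for each measure and group of animals, as designed, with the ependymal score as a covariate and without the 5 libraries of highest score. The median over all animals is 0.51 as designed, 0.03 with the covariate and 0.20 without the 5 libraries.

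Ethanol intake was tried in place of preference, as the dose per body weight. In females 9 members rose with mean intake in edgeR, against 1.28% of all genes: 9 of 44 passed an adjusted p under 0.05, and 27 an unadjusted one (9.95% of all genes). Per 10 g/kg, the log2 slope of Dnah2 was 1.27 ± 0.28 (adjusted p = 0.0244), of Cfap53 1.69 ± 0.38 (0.0244), of Rsph10b 1.06 ± 0.25 (0.0258) and of Cfap61 1.15 ± 0.29 (0.0385). Dnah11 (1.72 ± 0.44; 0.0407), Tekt1 (1.42 ± 0.37; 0.0408), Cfap44 (1.39 ± 0.36; 0.0414), Dnah9 (1.09 ± 0.29; 0.0456) and Cfap43 (1.54 ± 0.41; 0.0471) were the others. DESeq2 called 3 members, limma-voom 0 (smallest adjusted p = 0.0903, 23 at an unadjusted p under 0.05), and edgeR with run as a covariate 13.

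These calls rested on females 38 and 17. Dnah2 stood at 27.6 CPM in female 38 and 15.7 CPM in female 17, then at 7.19 CPM in the next female, with a median of 3.56 and a lowest value of 1.22 CPM. Cfap44 stood at 36.4 and 23.1 CPM in the same females, then 12.4, with a median of 3.70 CPM. Dnah11 stood at 22.95 and 11.9 CPM, then 5.02, with a median of 1.34 CPM. In all 9 called members these 2 females held the first and second rank. Their mean intake was 14.8 and 13.5 g/kg, and only 1 other female had more. That female, number 12 (15.2 g/kg), had 5.18 CPM of Dnah2 and 2.29 CPM of Dnah11, rank 13 and 17 of 43. Among males, number 33, also 1 of the 5 highest libraries, had the lowest intake (0.453 g/kg) and ranked first of 41 in Dnah2 (15.8 CPM), Rsph10b, Cfap61, Dnah11, Tekt1 and Cfap44. Without female 38, edgeR called 0 members (smallest adjusted p = 0.663, 14 at an unadjusted p under 0.05), and without female 17 it called 0 (0.145, 19). Leaving out each of the other females in turn left 3 to 13 calls, with 3 to 5 when female 1, 3, 6, 8, 9, 14, 15, 18, 19, 24 or 26 was left out. Without both, 0 members passed even an unadjusted p under 0.05, and the median slope went from 0.78 to 0.12. With the ependymal score or the choroid plexus score as a covariate, edgeR called 0 members (6 and 5 at an unadjusted p under 0.05). These covariate fits carry the limit given above for preference.

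**Figure D5:**
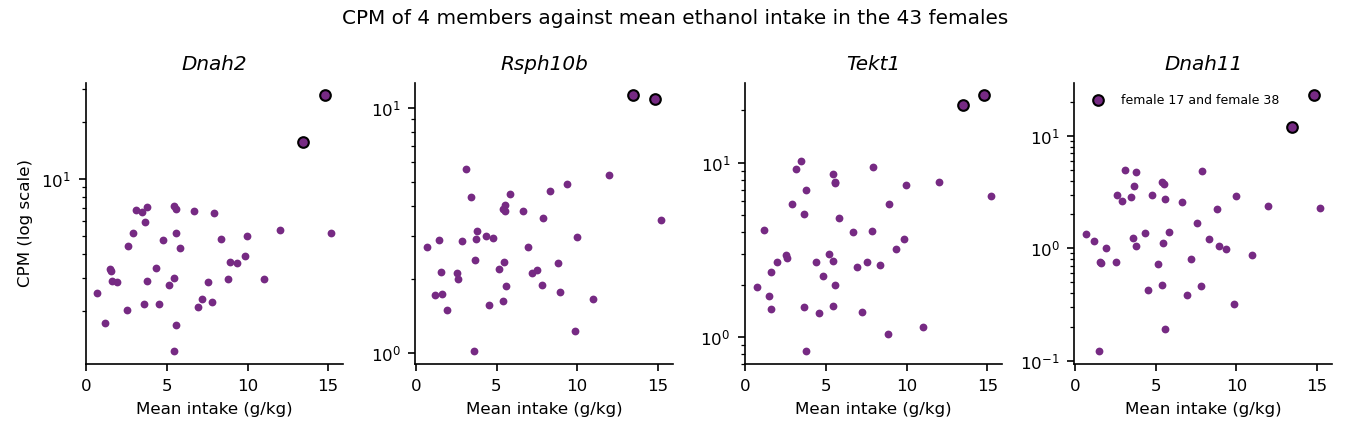
CPM (log scale) of members that rose with mean ethanol intake in the 43 females, against intake in g/kg, 1 point per female. Females 38 and 17, the ringed points at 14.8 and 13.5 g/kg, are the highest in each panel.

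In males 0 members passed for mean intake in edgeR and 0 had an unadjusted p under 0.05 (1.59% of all genes), and the sex difference in the intake slope passed for 0 (1 at an unadjusted p under 0.05, against 2.47%). Over all animals mean intake gave 0 calls and 26 members at an unadjusted p under 0.05 in edgeR, against 0.0472% and 8.36% of all genes. Intake in week 13 gave 2 calls over all animals, Dnah2 (0.86 ± 0.20, adjusted p = 0.0317) and Cfap61 (0.81 ± 0.20, 0.0372), against 0.514% of all genes (26 at an unadjusted p under 0.05, against 13.0%). DESeq2 called 5, limma-voom 0 (24 at an unadjusted p under 0.05), and edgeR 0 with run as a covariate (27) and 0 without the 5 highest libraries (0).

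Genes of the other motile cilium lists had 0 calls for mean preference over all animals in edgeR. At an unadjusted p under 0.05, 4 of 7 central apparatus genes sloped up, with Spef2 (1.08 ± 0.41) and Hydin (1.03 ± 0.40) first. So did 7 of 11 ruler and nexin-dynein genes, with Iqcg (0.73 ± 0.25) and Fbxl13 (1.39 ± 0.51), and 5 of 11 dynein intermediate and light chains, with Tctex1d1 (0.96 ± 0.31) and Dnaic2 (0.68 ± 0.29). The same held for 7 of 15 docking and assembly genes, with Ccdc103 (0.54 ± 0.21) and Ttc25 (0.90 ± 0.38), and for 4 of 10 transcription factors, with Myb (1.21 ± 0.48) and Gmnc (1.19 ± 0.51). Of 15 primary cilium genes 0 did, where Arl13b (0.11 ± 0.07) and Ift80 (0.14 ± 0.09) had the smallest p. Over all genes the share in either direction was 4.18%. Without the 5 highest libraries, 3 genes of the 5 motile lists sloped up at that p, in place of 27 (1 docking and assembly, 1 intermediate or light chain, 1 ruler or nexin-dynein gene). For week 1 preference and in males 0 genes of these lists sloped up at that p. For mean intake in females edgeR called 6 of them: Spef2, Gmnc, Ccdc114, Ttc25, Tctex1d1 and Iqcg, with log2 slopes of 0.98 to 1.87 per 10 g/kg and adjusted p of 0.0325 to 0.0473, against 1.28% of all genes. For week 13 intake over all animals it called Iqcg and Tcte1, and without the 5 highest libraries it called 0 in both comparisons.

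For sex itself, Rsph6a had the smallest p, with a male minus female log2 difference of 0.54 ± 0.22 (p = 0.0166, edgeR adjusted p = 0.988) at medians of 0.218 CPM in males and 0.128 CPM in females. Dnah1 (0.23 ± 0.13), Dnah17 (0.22 ± 0.16), Cfap43 (0.40 ± 0.32), Cfap70 (0.33 ± 0.29) and Tekt1 (0.30 ± 0.26) were next, then Rsph14 (0.25), Rsph9 (0.13), Rsph4a (0.21) and Rsph10b (0.17). In edgeR 0 members passed (1 at an unadjusted p under 0.05), against 0.0944% and 3.97% of all genes, 34 of 44 differences were above 0, against 51.3%, and DESeq2 and limma-voom each gave 0 (1). For runs of sample-sheet numbers the share of members called did not exceed that of all genes. The ependymal score, however, had medians of -0.50, -0.52, -0.69 and 0.25 in runs 1 to 4. Median Ttr levels were 3.47, 20.8, 11.2 and 618 CPM in the same order. These differences in score and Ttr were not tested. Tekt2, Dnah1 and Cfap46 (ENSMUSG00000049571) passed an edgeR F-test over the 4 runs, 3 of 44 against 21% of all genes (10 at an unadjusted p under 0.05, against 36.9%). Tekt2 had median levels of 1.09, 1.38, 1.46 and 1.66 CPM in runs 1 to 4 (range of fitted log2 values 1.02, adjusted p = 0.0190). Dnah1 had 12.9, 12.9, 17.6 and 17.7 CPM (0.55, 0.0194), and that row of Cfap46 3.03, 4.64, 4.87 and 4.59 CPM (0.80, 0.0206). By limma-voom only Dnah1 of these was called. Cfap20 (0.15), Dnah7a (0.61), Dnah17 (0.68), Dnah8 (0.74), Cfap53 (1.07), the other row of Cfap46 (0.71) and Dnah6 (1.03) came next, given as the same range, with an unadjusted p under 0.05 but no call.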

How the data were processed

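RNA from the CeA of 84 mice was sequenced, 1 stranded poly(A) library per animal. The submitters' processing notes name STAR, featureCounts 1.6.0 and the build GRCm38/mm10; the strand setting of the counting is not given in the sources used here. The deposited table holds raw counts per gene, not normalised by the authors, and 3 columns of no sample were not used. Drinking values and sex came from the labels. Genes with 10 counts in 20 libraries (16941) were scaled by TMM and tested in edgeR 4.0.16 (R 4.3.3; robust quasi-likelihood, Benjamini-Hochberg), with DESeq2 1.42.0 and limma 3.58.1 as alternatives. CPM are scaled by the library's total over those 16941 genes, adjusted by TMM. Log2 CPM used a prior count of 2. Scripts were tested on simulated data. For each comparison the 10 members with the smallest p were named, and every member is given with its level. Nothing in the labels says more than that each library is 1 animal, so p-values measure the spread between animals, families included. The members, marker lists and pathway lists were chosen with earlier results of these data known.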

Additional observations from a re-analysis of the deposited data

How the results depend on the processing

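Counts of called members were unchanged, or within 1.5 times, under other size factors (RLE), other filters on low counts, DESeq2, limma-voom, the covariates and the rank of preference, except as follows. With intake in place of preference, members called for week 13 went from 0 to 2 (5 by DESeq2), and those in females from 0 to 9 (13 with run as a covariate, 3 by DESeq2, 0 to 13 over the refits that leave out 1 female each). Both intake counts were 0 by limma-voom, without the 5 libraries of highest score, and with the ependymal or the choroid plexus score as a covariate, and that of week 13 also with run as a covariate. Members called for run were 3, but 1 by limma-voom and 7 with the choroid plexus or the ependymal score as a covariate. For the ependymal marker score and mean preference, r was 0.18, and with mean intake in place of preference 0.22 (permutation p = 0.0409). Without the 5 libraries of highest score, slopes turned for Cfap57 (-0.067), Dnah10 (-0.11) and Cfap53 (-0.0043) in week 1, for Dnah11 in females (-0.075), and for the sex difference in slope of Cfap61 (0.080), Dnah2 (0.19) and Dnah11 (0.42). The slope of Rsph14 in males turned to -0.14 by limma-voom, -0.29 with the choroid plexus score and -0.28 with the ependymal score, and the sex difference of Cfap43 to -0.044 with the choroid plexus score. The cause was not tested. Depth limits the lowest members: Dnah3, Dnah12, Tekt3, Rsph6a, Cfap52, Cfap53 and Cfap221 had no counts in at least 1 library. No paired analysis was possible because the replicate numbers only follow the order of the samples and pair no animals across the sexes.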
